A study of Sus scrofa with 12 samples.

Results

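CPT1A, PPARGC1B, SCD and GRAMD1C are 4 genes of lipid handling, taken by symbol from a deposited expression table of 516 genes of pig heart. They were chosen with results of these data known, because they handle lipids and because the table lists them for a difference between pressure overload and control hearts. That difference is therefore described here and not tested. The table lists genes with an unadjusted p under 0.05 in the authors' own test, and its adjusted p-values imply that 15235 genes were tested, so 3.39% of them were listed, 2.46% as lower and 0.926% as higher. CPT1A, PPARGC1B and GRAMD1C were listed as lower in pressure overload and SCD as higher.

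LV Pressure Overload hearts came from pigs in which a cuff around the ascending aorta was tightened in steps, and they were studied at 5 weeks. Referent Control hearts came from pigs matched for age and weight. The series title names the model as heart failure with preserved ejection fraction, and the labels carry one note on cuff placement for both groups, so whether controls bore a cuff is not clear. The series text gives 9 pigs with pressure overload and 6 controls, and 6 libraries of polyadenylated RNA of each group were analysed here. No genotype, strain, age, sex or heart region is given in the sources used here, nor whether each library is from a separate pig, so any p-value measures the spread between these libraries. The labels number the libraries S01 to S06 and S10 to S15, and each of these runs holds 3 pressure overload and 3 control libraries. What the gap in the numbering stands for is not given, so the runs are used only to ask whether a value looks alike in each.

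Heart muscle takes most of its energy from long-chain fatty acids. Carnitine palmitoyltransferase 1 at the outer mitochondrial membrane couples them to carnitine for entry into mitochondria, and malonyl-CoA, the building block of fatty acid synthesis, inhibits it. CPT1A is the form known from liver, and CPT1B is the main form of adult muscle. PPARGC1B encodes PGC-1 beta, a coactivator that works with PPAR and ERR nuclear receptors on genes of fatty acid oxidation and mitochondria. SCD encodes stearoyl-CoA desaturase of the endoplasmic reticulum, which makes monounsaturated fatty acids such as oleate and is a known target of SREBP-1 and LXR. GRAMD1C encodes Aster-C, one of the GRAMD1 proteins that move cholesterol from the plasma membrane to the endoplasmic reticulum.

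In the Sscrofa11.1 RefSeq annotation CPT1A lies on chromosome 2 from 4250642 to 4293914, and PPARGC1B on the same chromosome from 150823338 to 150924871. SCD lies on chromosome 14 from 111461560 to 111478033, and GRAMD1C on chromosome 13 from 145997738 to 146105785. Only PPARGC1B overlaps another annotated gene, the microRNA gene MIR378-1.

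Values are CPM, read counts scaled to a common library size, as the authors deposited them. CPM is not divided by gene length, so levels are compared between libraries and never between genes. The effective library sizes recovered from the values ranged from 19.5 to 31.9 M reads, and between 92 and 1106 reads stood behind each value of the 4 genes. The listed genes together took 2.68% to 3.73% of a pressure overload library and 3.50% to 4.34% of a control library. The label of heart tissue could not be checked, because none of 17 cardiomyocyte markers is among the listed genes and their values were not analysed here. In bulk tissue, fewer cells of a type and less RNA per cell cannot be told apart.

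GRAMD1C fell in pressure overload. It was at 8.34, 12.4, 5.88, 6.08, 11.8 and 6.66 CPM in pressure overload replicates 1 to 6, and at 16.0, 16.9, 18.9, 18.3, 18.6 and 39.8 CPM in control replicates 1 to 6. The groups did not overlap, and control replicate 6 stood far above the other controls. The means were 8.53 ± 2.91 CPM in pressure overload and 21.4 ± 9.06 CPM in controls (SD, n = 6 each), a ratio of 0.398. Without control replicate 6 the control mean was 17.8 ± 1.23 CPM (SD, n = 5) and the ratio 0.480. On the log2(CPM + 1) scale, which understates changes of low genes, the difference was -1.22 with a 95% interval from -1.72 to -0.71 (limma). GRAMD1C was the only one of the 4 genes that passed the authors' adjusted threshold. The authors' deposited table gives it a log2 fold change of -1.32 and an adjusted p of 0.0406. Of the 15235 tested genes 0.0394% passed there, 0.0328% as lower and 0.00656% as higher. In limma, adjusted over the same 15235 genes, none of the 4 genes passed, and no gene of the table did. At an unadjusted p under 0.05 limma gave 456 of 512 fitted genes (89.1%), all of them listed on these same libraries. Groups that did not overlap were seen in 9.69% of the 516 listed genes, 7.56% with lower values in pressure overload, and in 1 of the 4 genes described here.

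SCD was higher in pressure overload, at 17.1, 12.9, 17.2, 10.6, 4.80 and 4.36 CPM in replicates 1 to 6, against 7.23, 7.73, 5.93, 3.05, 5.13 and 4.16 CPM in control replicates 1 to 6. Pressure overload replicates 1 to 4 were above every control, while replicates 5 and 6 lay inside the control range. The means were 11.2 ± 5.69 CPM in pressure overload and 5.54 ± 1.79 CPM in controls (SD, n = 6 each), a ratio of 2.02. The coefficient of variation was 50.9% in pressure overload and 32.4% in controls. The log2 difference was 0.78, with a 95% interval from 0.10 to 1.46. The interval took in 0 when pressure overload replicate 1, 2 or 3 or control replicate 4 was left out, with differences of 0.64, 0.71, 0.63 and 0.65. The reads behind SCD ranged from 92 to 492, and 92 was the lowest behind any value of the 4 genes. The authors' deposited table gives SCD a log2 fold change of 0.99, with an unadjusted p of 0.0111 and an adjusted p of 1.

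CPT1A was lower in pressure overload, at 27.1, 25.7, 31.3, 19.1, 23.8 and 15.4 CPM in replicates 1 to 6, against 49.8, 20.7, 39.8, 36.7, 20.5 and 30.8 CPM in control replicates 1 to 6. Control replicates 2, 5 and 6 lay among the pressure overload libraries, and only 2 pressure overload libraries were below the lowest control. The means were 23.7 ± 5.71 CPM in pressure overload and 33.03 ± 11.4 CPM in controls (SD, n = 6 each), and all 6 pressure overload libraries were below the control mean. The log2 difference of -0.42 had a 95% interval from -0.90 to 0.05. In the authors' deposited table the unadjusted p was 0.0253.

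PPARGC1B was at 9.46, 13.96, 14.1, 7.51, 13.1 and 13.6 CPM in pressure overload replicates 1 to 6, against 10.4, 14.7, 18.1, 22.3, 19.2 and 13.5 CPM in control replicates 1 to 6. The groups overlapped, and 2 pressure overload libraries were below the lowest control. The means were 11.97 ± 2.79 CPM in pressure overload and 16.4 ± 4.32 CPM in controls (SD, n = 6 each). The log2 difference was -0.41, with a 95% interval from -0.85 to 0.02. In the authors' deposited table the unadjusted p was 0.0421, near the largest listed p of 0.04997, and genes just beyond that limit were not analysed here.

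**Figure D1:**
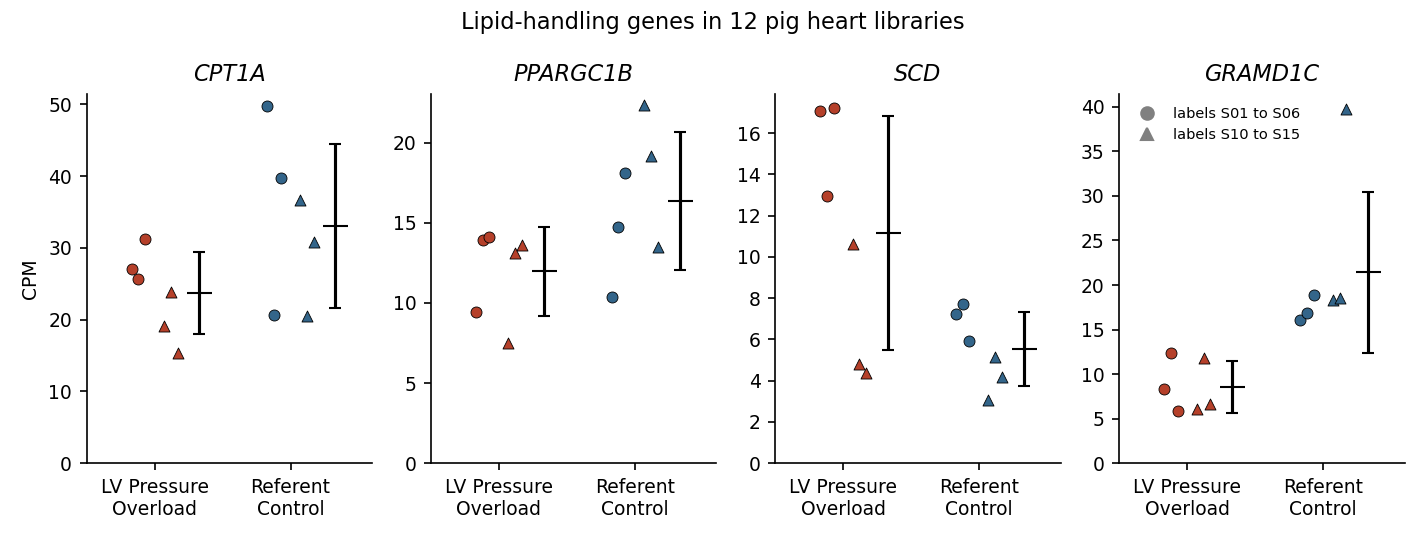
CPM of CPT1A, PPARGC1B, SCD and GRAMD1C in each library, LV Pressure Overload left of Referent Control. Circles are libraries S01 to S06 and triangles S10 to S15, and bars give the mean and SD of 6 libraries. GRAMD1C is the only panel in which the groups do not overlap, and pressure overload SCD runs from 4.36 to 17.2 CPM.

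CPT1A and PPARGC1B were typical of the table in size. The median log2 difference of the 512 fitted genes was -0.41, and CPT1A and PPARGC1B differed from it by -0.01 and -0.00026. GRAMD1C was 0.80 below that median and SCD 1.20 above it. By size of log2 fold change, taken from the authors' deposited table, GRAMD1C ranked 23, SCD 50, CPT1A 272 and PPARGC1B 304 of 516. Median-of-ratios rescaling of the libraries moved the median of the listed genes to -0.10 and with it CPT1A and PPARGC1B to -0.11 each. GRAMD1C was then at -0.92 and SCD at 1.06, so their distances from the median were -0.82 and 1.16. The rescaling factors come from listed genes, most of which were lower, so this shift is built in.

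The ratio of 2 genes within a library is not moved by library scaling. The SCD to CPT1A ratio of CPM was 0.631, 0.503, 0.550, 0.555, 0.201 and 0.283 in pressure overload replicates 1 to 6, against 0.145, 0.374, 0.149, 0.0832, 0.250 and 0.135 in control replicates 1 to 6. Pressure overload replicates 1 to 4 were above all controls, the same libraries as for SCD alone. The log2 ratio was 1.32 higher in pressure overload than in controls, and 1.48 and 1.16 higher within S01 to S06 and within S10 to S15. The SCD to PPARGC1B ratio had a median of 1.07 in pressure overload (0.319 to 1.80) and of 0.318 in controls (0.136 to 0.697), again with 4 pressure overload libraries above all controls. These ratios combine genes chosen on this contrast and carry no test.

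The level of SCD was also lower on average in S10 to S15 than in S01 to S06, a comparison that did not enter the choice of genes. In pressure overload it averaged 6.59 CPM in S10 to S15 and 15.7 CPM in S01 to S06, and in controls 4.11 and 6.97 CPM. The libraries of the 2 runs did not overlap within either group, and how many other listed genes were alike in this was not counted. In limma with group and run as factors, the log2 difference of S10 to S15 minus S01 to S06 was -0.94 ± 0.22 (SE). SCD ranked 1 of 512 genes by p for that term and did not pass adjustment over the table (adjusted p = 0.419, limma). No gene passed for that term, and 7.62% of the 512 had an unadjusted p under 0.05. For CPT1A the run term was -0.39 ± 0.21, for GRAMD1C 0.17 ± 0.24 and for PPARGC1B 0.09 ± 0.21 (SE), with an adjusted p of 0.669 for CPT1A and of 0.988 for the other two (limma).

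All 4 genes kept their direction within each run, which listing on these same libraries favours. Of the 512 fitted genes, 374 were lower with all libraries, 352 within S01 to S06 and 374 within S10 to S15. The log2 differences of pressure overload minus control within S01 to S06 and within S10 to S15 were 1.07 and 0.50 for SCD, -0.94 and -1.49 for GRAMD1C, -0.30 and -0.55 for CPT1A, and -0.18 and -0.65 for PPARGC1B. Within S01 to S06 the 3 pressure overload libraries were above the 3 controls for SCD, as for 34.8% of the 141 listed genes that were higher. Within S10 to S15 they overlapped the controls. The change of the group difference between runs did not pass for any of the 4 genes or for any other fitted gene, and 24.8% of the 512 had an unadjusted p under 0.05 for it. For SCD it was -0.57 with a 95% interval from -1.48 to 0.35 (adjusted p = 0.377, limma).

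The library with the lowest SCD, control replicate 4, held 30.2 M reads, and the one with the highest, pressure overload replicate 3, held 28.6 M. Among the markers of other cell types, only the endothelial receptor KDR, 1 of 14 endothelial markers, and SCD itself, 1 of 14 markers of fat cells, are among the listed genes. No listed marker of fat cells other than SCD gives a level to set beside it. KDR was at 162, 191.5, 188, 117, 112 and 128 CPM in pressure overload replicates 1 to 6, against 89.9, 147, 104, 98.8, 104 and 62.1 CPM in control replicates 1 to 6. Like SCD it was highest in pressure overload replicates 1 to 3, and it ranked 3 of 512 genes for the run term, at -0.48 ± 0.15 (SE; adjusted p = 0.523, limma). With group means removed its Pearson r with SCD over 12 libraries was 0.61, and with group and run means removed it was -0.02. Outside the marker lists, GPIHBP1 of capillary endothelium and the Notch ligand DLL4 were lower in pressure overload, unlike KDR. Their means were 22.6 and 18.1 CPM there, against 34.8 and 23.8 CPM in controls. The part of endothelial cell content or of the run in the SCD values was not tested.

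The oxidation genes did not follow SCD across libraries in a way that passed a test. Group means were subtracted from log2(CPM + 1), which takes out the contrast the genes were chosen on, and 6 pairs of the 4 genes were tested by permuting libraries within groups. CPT1A and SCD had r = 0.35 (permutation p = 0.241, adjusted 0.786) and Spearman rho = 0.46 (permutation p = 0.115, adjusted 0.691) over 12 libraries. Without the 2 libraries farthest from the median of SCD, pressure overload replicates 1 and 3, r was 0.13. With run means removed as well, r was -0.22, so the positive sign was not kept. With no means removed, r was -0.01 and rho 0.01, values that hold the group contrast and are given without a test.

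PPARGC1B and SCD had r = -0.36 (permutation p = 0.262, adjusted 0.786) and rho = -0.17 (permutation p = 0.609, adjusted 0.991). Without the 2 libraries farthest from the median of SCD r was -0.49, and with run means also removed it was -0.69 (permutation p adjusted over 6 pairs 0.347). With no means removed r was -0.55 and rho -0.32, again holding the contrast. Of the other listed genes, 32.3% had a larger absolute r with SCD than PPARGC1B had, and 35.2% had a larger one than CPT1A had. Neither gene therefore stood apart from the table in its relation to SCD.

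Within pressure overload, CPT1A and SCD had r = 0.74 (exact permutation p = 0.131, n = 6, adjusted over 12 tests 0.858) and rho = 0.94 (exact permutation p = 0.0167, adjusted 0.20). Without the 2 libraries farthest from the median of SCD, replicates 5 and 6, r was 0.92 over 4 libraries. Within controls, r was -0.08 (exact permutation p = 0.858, n = 6) and rho 0.09 (exact permutation p = 0.919). The difference between the groups in this relation was not tested. CPT1A in pressure overload was at 25.7 to 31.3 CPM in S01 to S06 and at 15.4 to 23.8 CPM in S10 to S15. SCD was at 12.9 to 17.2 CPM and at 4.36 to 10.6 CPM in the same libraries. Both genes thus split by run there, and how many other listed genes did so was not counted. The part of the run in this relation was not tested. PPARGC1B and SCD had r = -0.25 within pressure overload (exact permutation p = 0.706, n = 6) and r = -0.62 within controls (exact permutation p = 0.172, n = 6), and rho was 0.31 within pressure overload and -0.54 within controls (exact permutation p = 0.564 and 0.297). The coactivator and CPT1A had r = -0.11 over 12 libraries with group means removed (permutation p = 0.747, adjusted 0.902) and rho = -0.01 (permutation p = 0.975). GRAMD1C had r = -0.26 with SCD (permutation p = 0.419), 0.05 with CPT1A (permutation p = 0.902) and 0.09 with PPARGC1B (permutation p = 0.802), with rho of -0.27, -0.12 and 0.01 (permutation p = 0.455, 0.711 and 0.991).

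**Figure D2:**
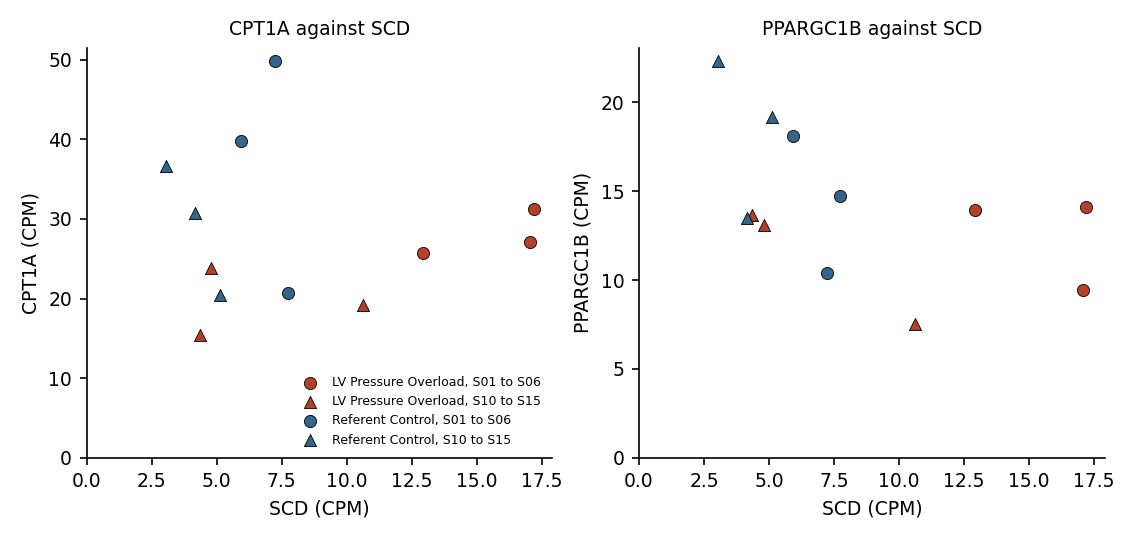
CPM of CPT1A (left) and PPARGC1B (right) against CPM of SCD in 12 libraries, LV Pressure Overload in red and Referent Control in blue, with circles for S01 to S06 and triangles for S10 to S15. The red circles lie farthest right, at 12.9 to 17.2 CPM of SCD, and CPT1A shows no single trend over all points.

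The listed genes whose values were most like each of the 4, again with group means removed over 12 libraries, are given as a description, since the highest of 515 correlations is large by selection. For CPT1A they were the chromatin remodeler CHD9 (r = 0.81), the Notch pathway transcription factor RBPJ (0.80), CRACDL (0.77), the centriole protein POC5 (0.72) and the mitochondrial nucleotide carrier SLC25A36 (0.70), and the most opposite were SH3TC2 (-0.86) and the secreted protein METRNL (-0.71). For SCD they were GRIP2 (r = 0.83), the chromatin proteins RSF1 (0.82) and BAZ2B (0.77), RBPJ (0.78) and complement C3 (0.76), and the most opposite were the ubiquitin ligase MKRN2 (-0.78) and OLFM1 (-0.76). RBPJ was thus among the 5 nearest genes of both CPT1A and SCD. It was at 44.3, 42.3, 48.4, 40.2, 37.0 and 31.0 CPM in pressure overload replicates 1 to 6, against 62.0, 49.8, 59.1, 50.0, 46.2 and 45.8 CPM in control replicates 1 to 6.

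For PPARGC1B the nearest genes were C6orf62 (r = 0.75), MBTD1 (0.72), the calpain CAPN15 (0.68), the peptide hormone apelin, APLN (0.68), and the TGF-beta pathway repressor SKI (0.67). The most opposite were STAP1 (-0.70) and the glycosyltransferase B3GALNT1 (-0.69). For GRAMD1C they were FAM214A (r = 0.86), CEP85 (0.79), RAP1GAP2 (0.76), the Argonaute gene AGO4 (0.76) and PGAP3 (0.75), with the peptidase PRCP (-0.87) and the Notch ligand DLL4 (-0.84) the most opposite. By rank the last 4 of the nearest were less close to GRAMD1C, with rho from 0.49 to 0.66, and control replicate 6 is the library in which GRAMD1C stood apart. No lipid gene of the lists below was among the nearest genes of the 4.

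**Figure D3:**
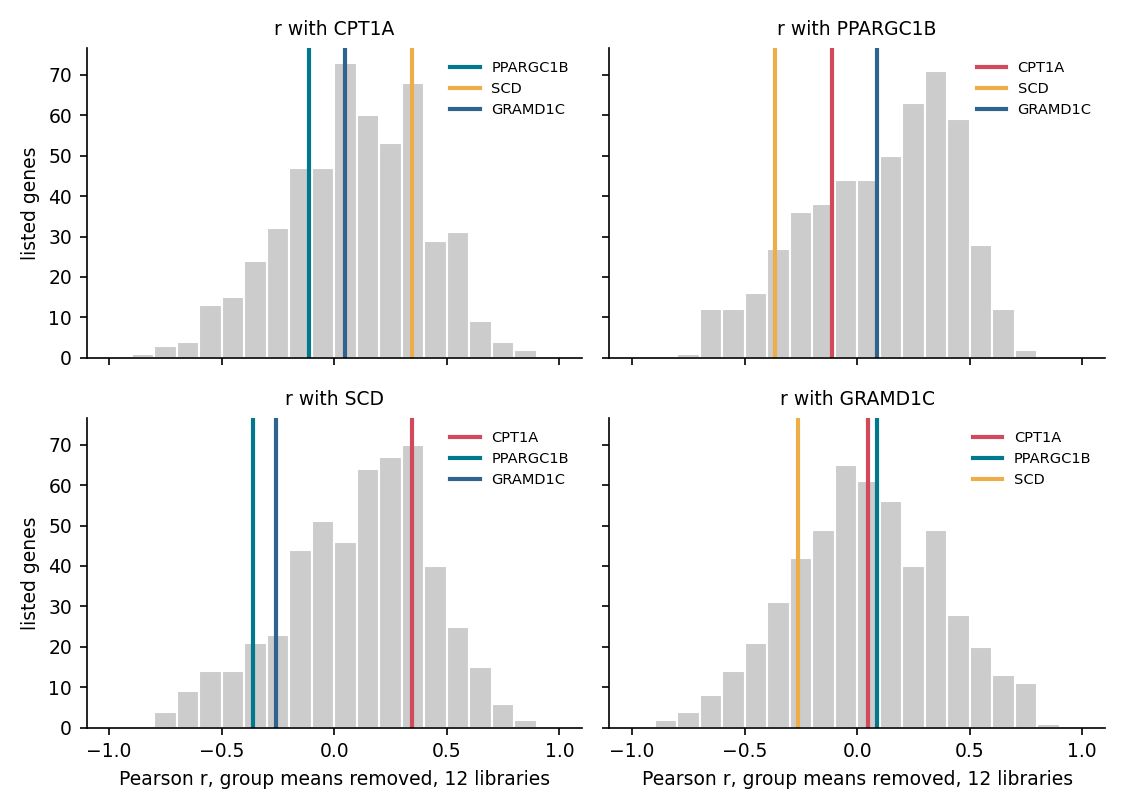
Distribution of Pearson r (x axis, group means removed, 12 libraries) between each of the 4 genes and the other 515 listed genes (y axis, number of genes), with coloured lines at the r of the other 3 genes. The lines fall inside the bulk of each distribution, as for CPT1A with SCD at 0.35.

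Lipid genes outside the 4 were taken from 9 lists of 292 genes. Of these, 14 were listed, 11 lower and 3 higher, among them the 4 described above. Their median log2 fold change by the authors' deposited table was -0.46, beside -0.42 over all 516 listed genes, of which 72.7% were lower. The lists had 286 members in the RefSeq annotation, of which 4.90% were listed, where 3.39% of all tested genes were. The first share counts the 4 genes that were chosen because they were listed, and only 10 of the 14 are others. It is also a share of annotated genes and not of tested genes, so no excess can be read from it. By list, 2 of 40 genes of the carnitine shuttle and beta-oxidation were listed, 1 of 24 of fatty acid uptake, 2 of 35 PGC-1, PPAR and ERR regulators, 1 of 21 PPAR targets, 1 of 34 of fatty acid synthesis, 2 of 32 of cholesterol synthesis, 3 of 45 of sterol transport, 0 of 35 of triglyceride synthesis and lipid droplets, and 3 of 42 of phospholipid and sphingolipid synthesis. CPT1B, PPARGC1A, FASN, SREBF1 and the other genes of these lists were not analysed here, and absence from the table says nothing of their size of difference. None of the 14 was called by limma, and GRAMD1C alone was called in the authors' deposited table.

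Among the genes of sterol transport, GRAMD1B, which encodes the related protein Aster-B, had a mean ratio close to that of GRAMD1C. It was at 10.7, 4.65, 6.51, 11.2, 9.66 and 4.11 CPM in pressure overload replicates 1 to 6, against 12.6, 15.7, 6.96, 12.2, 30.0 and 50.7 CPM in control replicates 1 to 6. Controls ranged over a wide span, with control replicate 6 highest as for GRAMD1C, and the groups overlapped. The ratio of means was 0.366, and 0.504 without control replicate 6, and the authors' deposited table gives a log2 fold change of -1.44 and an adjusted p of 0.925. With group means removed GRAMD1C and GRAMD1B had r = 0.45 and rho = 0.17 over 12 libraries, rank 60 of 515 by r. The GRAMD1C to GRAMD1B ratio had a median of 1.06 in pressure overload (0.541 to 2.66) and 1.17 in controls (0.619 to 2.72). The third listed gene, the oxysterol-binding protein relative OSBPL3, was at 36.1 ± 9.69 CPM in pressure overload and 26.6 ± 4.71 CPM in controls (SD, n = 6 each).

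In cholesterol synthesis the 2 listed enzymes differed in direction. Lanosterol synthase, LSS, was at 17.7 ± 4.66 CPM in pressure overload and 24.1 ± 3.71 CPM in controls, and the sterol methyl oxidase MSMO1, which acts after it, at 25.7 ± 4.44 CPM in pressure overload and 19.9 ± 1.64 CPM in controls (SD, n = 6 each). MSMO1 was above every control in 4 pressure overload libraries, and LSS below every control in 3. In fatty acid oxidation, DECR2, a peroxisomal reductase for unsaturated fatty acids, was at 9.44 ± 3.71 CPM in pressure overload and 13.5 ± 2.57 CPM in controls. Pressure overload replicate 3 was at 16.9 CPM and the other 5 were below every control. GPIHBP1, which carries lipoprotein lipase across capillary endothelium, was at 22.6 ± 5.85 CPM in pressure overload and 34.8 ± 14.5 CPM in controls, with controls up to 55.7 CPM. The acetyltransferase CREBBP, a coactivator of many factors, was at 47.7 ± 10.3 CPM in pressure overload and 58.4 ± 3.48 CPM in controls.

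The phospholipid and sphingolipid list had 3 listed genes, all lower. Choline kinase, CHKA, was at 13.8 ± 4.43 CPM in pressure overload and 25.4 ± 8.37 CPM in controls, and the authors' deposited table gives a log2 fold change of -0.88 and an adjusted p of 0.410. CHKA overlaps TCIRG1 in RefSeq, and OSBPL3 overlaps LOC102166253. Whether reads were assigned by strand is not stated, so the values of CHKA and OSBPL3 are uncertain. LSS has no known chromosome in RefSeq, so overlaps of LSS were not searched. Phosphatidylserine synthase PTDSS2 was at 45.5 ± 5.53 CPM in pressure overload and 57.3 ± 7.53 CPM in controls. Sphingomyelin synthase SGMS1 was at 42.4 ± 2.88 CPM in pressure overload and 62.0 ± 27.4 CPM in controls, where control replicate 6 was at 111 CPM and control replicate 5 at 28.4 CPM. In SGMS1 no pressure overload library was outside the control range.

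**Figure D4:**
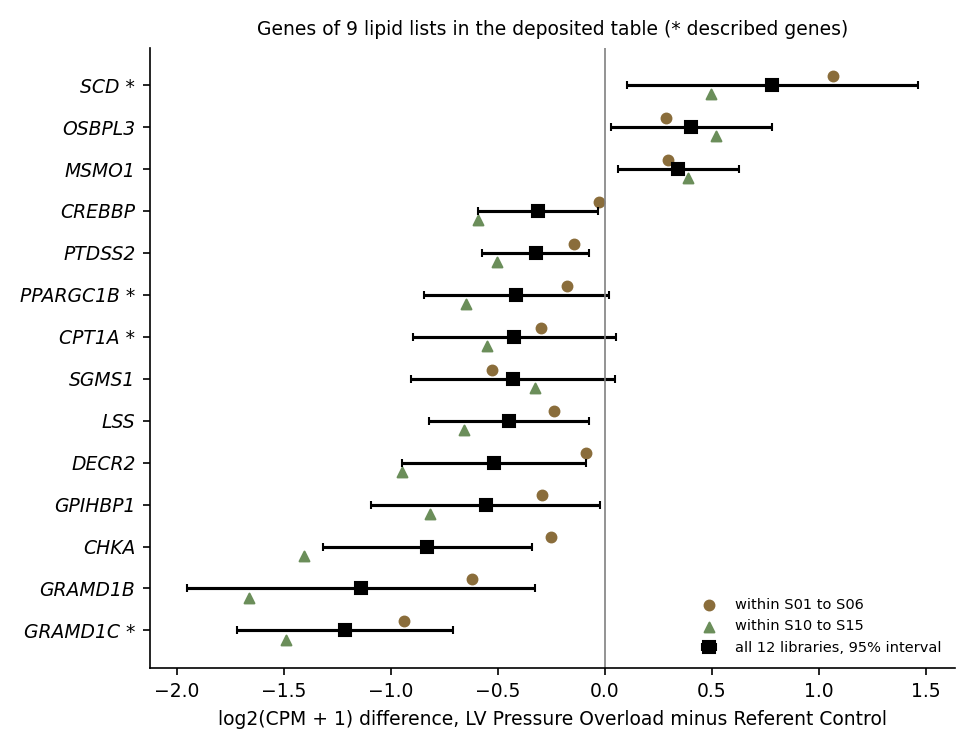
Difference in log2(CPM + 1), LV Pressure Overload minus Referent Control, for the 14 listed genes of the 9 lipid lists, with squares and bars for all 12 libraries and the 95% interval, circles for S01 to S06 and triangles for S10 to S15. All 14 kept their sign within each run, and 12 of the 14 differed more within S10 to S15.

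The larger difference within S10 to S15 was general to the table. It held for 12 of the 14 lipid genes and for 83.2% of the 512 fitted genes, and SCD and SGMS1 were the 2 lipid genes in which the difference was larger within S01 to S06. All of these genes were listed on these same libraries, which favours a shared sign.

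A further deposited value of SCD differed from its libraries. The authors' deposited table gives a mean log2 CPM of 4.32 for SCD, equal to 20.0 CPM, while the 12 libraries averaged 8.35 CPM and the highest was 17.2 CPM. The deposited mean was above all 12 libraries in 13 of the 516 genes, or 2.52%, and SCD ranked 13 of 516 by the gap, at 1.26 on the log2 scale against a median of 0.10. The gap was 0.25 for CPT1A, 0.07 for PPARGC1B and -0.05 for GRAMD1C. How the authors computed this mean, and over which libraries, the sources used here do not say.

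**Figure D5:**
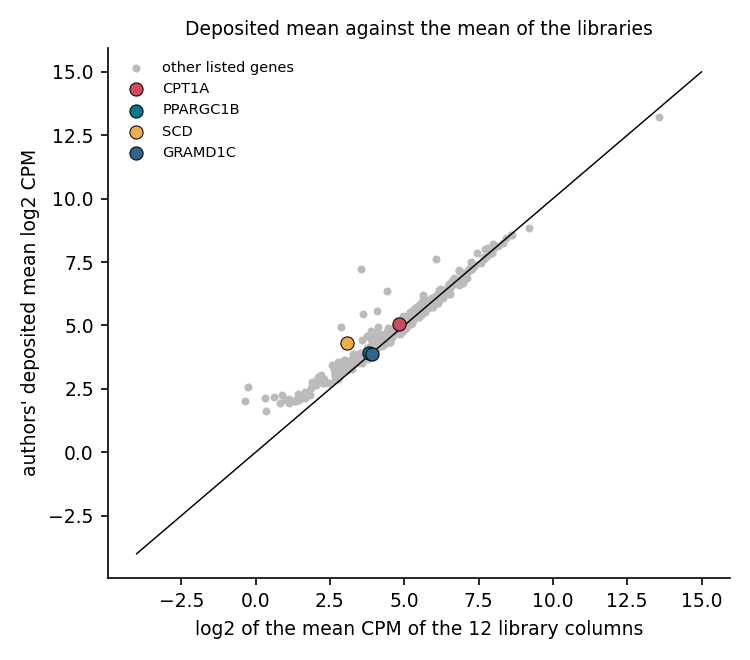
Mean log2 CPM in the authors' deposited table (y axis) against log2 of the mean CPM of the 12 libraries (x axis) for 516 listed genes, with the line of equality. SCD lies 1.26 above the line, while CPT1A, PPARGC1B and GRAMD1C lie within 0.25 of it.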

How the data were processed

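The samples' labels put 6 libraries in each group. Per the submitters' processing notes the authors used Sscrofa11.1 and, in no stated order, STAR 2.7.2b, Subread 1.5.3 (featureCounts), Trim Galore 0.4.5, SAMtools 1.5 and FastQC; the gene models, use of strand and treatment of multi-mapped reads are not stated. The deposited table holds CPM per library and, per the file headers, the authors' log2 fold change and mean log2 CPM, a statistic named LR (a score) and unadjusted and adjusted p-values. The header names no unit for the library columns, which are read as CPM from the table's name and their steps, and the mean is read as log2 because its median gap to the log2 mean of the libraries is 0.10. Adjusted p-values recomputed with 15235 tests equalled the 103 deposited values under 1.

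Genes, lists and tests were chosen with earlier results of these data known. The rule for named genes took the 4 genes, every listed gene of the 9 lipid lists and of the marker lists, and per gene the 5 highest and 2 lowest correlations. Markers of cardiomyocytes, fat cells, endothelium, fibroblasts, smooth muscle, leukocytes, nerve and blood gave 0, 1, 1, 0, 0, 0, 0 and 0 listed genes.

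CPM was tested with limma 3.58.1 in R 4.3.3 (intensity trend, log2(CPM + 1), genes with a CPM of 1 or more in 6 or more libraries), which was tested on simulated data, with Benjamini-Hochberg adjustment over the 15235 genes, unlisted genes counting as larger p-values. The tests of the run of label numbers, alone and with group, were added after the data were seen and adjusted over the 512 fitted genes. Correlations used SciPy 1.17.1 with 100000 permutations within groups, or all 720 pairings of 6 libraries. Library size was found from the step between CPM values. At a tolerance of 0.02 reads, 95.8% of the values under 5000 reads came out whole. When multiplied by 3, 99.6% came out whole at a tolerance of 0.06. No count model was fitted. Alternatives were other pseudocounts, filters and scalings, leaving out each library, the replicate block, and values within each run. RefSeq matched 490 of 516 symbols.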

Additional observations from a re-analysis of the deposited data

Results flagged for a closer look

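In a check of 15 genes in each group, 2 of 30 groups had a library far from the others, and chance flags about 1 in 20 groups. GRAMD1C in control replicate 6 was at 39.8 CPM, where the next control was at 18.9 CPM. DECR2 in pressure overload replicate 3 was at 16.9 CPM, where the next pressure overload library was at 8.68 CPM; without it the ratio of means was 0.588 in place of 0.698.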

How the results depend on the processing

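The log2 differences of CPT1A, PPARGC1B, SCD and GRAMD1C kept their sign under 21 alternatives each and moved by less than the spread between replicates. Some of these, such as no filter on low values, the replicate block or the run as a factor, could not move a difference. Leaving out each library in turn gave -0.54 to -0.29 for CPT1A, -0.53 to -0.30 for PPARGC1B, 0.63 to 0.99 for SCD and -1.32 to -1.03 for GRAMD1C. The 95% interval took in 0 with all libraries for CPT1A and PPARGC1B. For CPT1A it left out 0 without pressure overload replicate 3 or control replicate 2 or 5. For PPARGC1B it left out 0 without pressure overload replicate 3 or control replicate 1 or 6. For SCD it took in 0 without pressure overload replicate 1, 2 or 3 or control replicate 4. The SCD interval also took in 0 within S10 to S15, where the difference was 0.50 ± 0.37 (SE). For GRAMD1C the interval left out 0 under all 21. All alternatives reuse the libraries on which these genes were listed, so the intervals describe the differences and do not test them. Rescaling moved CPT1A and PPARGC1B by over 1.5 times, to -0.11 each after median-of-ratios and to -0.22 and -0.21 after upper-quartile rescaling, with factors from mostly lower genes. Limma called 0 genes under every alternative but adjustment over the table alone, which gave 419 and is circular. At an unadjusted p under 0.05 it gave 456 of 512 genes in the main fit. Median-of-ratios rescaling gave 195 and upper-quartile rescaling 241 of the 512.

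Of the 6 correlations, PPARGC1B with SCD and GRAMD1C with SCD kept their sign under all 19 alternatives, and the other 4 did not. With run means removed CPT1A with SCD was -0.22 and PPARGC1B with GRAMD1C -0.078. CPT1A with GRAMD1C was -0.12 as Spearman rho. With no means removed, an alternative chosen after seeing the data, CPT1A with SCD was -0.012 and CPT1A with PPARGC1B 0.17. Leaving out each library gave 0.13 to 0.54 for CPT1A with SCD, -0.52 to -0.24 for PPARGC1B with SCD, -0.46 to -0.09 for GRAMD1C with SCD, -0.28 to 0.24 for CPT1A with PPARGC1B, -0.048 to 0.21 for CPT1A with GRAMD1C and -0.093 to 0.36 for PPARGC1B with GRAMD1C. The cause was not tested.

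The replicate number in the column names was not taken as a pairing. Deviations of same-numbered libraries correlated above 0.1 in 2 of 6 pairs, a check too weak to exclude pairing. With the replicate block limma called 0 genes and 414 had an unadjusted p under 0.05; the block is balanced and cannot move a difference (0.78 for SCD), and the SE for SCD was 0.26 with it and 0.32 without it. The fewest reads behind a value of the 4 genes were 92, for SCD.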
